A study of Mus musculus with 4 samples.

Results

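Long intergenic noncoding RNAs (lincRNAs) are transcripts from between protein-coding genes that are spliced and usually polyadenylated like messenger RNAs but are not annotated with a protein product. Some build nuclear bodies, some carry microRNAs or small nucleolar RNAs in their exons or introns, some act on a neighbouring gene in cis, and a few have since been found to encode small proteins. The well-expressed lincRNAs of mouse type 1 innate lymphoid cells (ILC1s) were chosen by their counts, as the genes with the lincRNA biotype that had 100 or more raw counts in each of 4 libraries. After repeated lines were collapsed, 73 of 2527 lincRNAs met the rule, out of 40481 genes in the table.

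The libraries were made from CD49a+ ILC1s, tissue-resident lymphocytes that share the receptor NKp46 (gene Ncr1) and the transcription factor T-bet with natural killer cells. The 2 control libraries (1 and 2) came from Inpp4b flox/flox mice, and the 2 libraries labelled knockout (3 and 4) from Ncr1-iCre Inpp4b flox/flox mice, in which Cre is driven by Ncr1, so both groups carried the floxed alleles. Inpp4b encodes a lipid phosphatase of phosphoinositide signalling. Liver was named as the tissue for control library 1 alone, and no age, sex or pooling was given.

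Library totals ranged from 42380840 to 54878210 counts. Inpp4b itself was not lower in the libraries labelled knockout: its level was 78.7 and 106.5 CPM (counts scaled to library size) in the controls and 142.5 and 86.0 CPM in libraries 3 and 4 (log2 fold change 0.30 ± 0.28 SE, edgeR adjusted p = 0.828), and without library 3 the difference was -0.13. Counts over the whole gene do not tell whether the floxed part was removed. All 10 ILC1 markers were present in every library, with a summed level of 9628 to 10617 CPM. Ncr1, the gene that drives the Cre, had 1673 and 1772 CPM in the controls and 1202 and 1077 CPM in libraries 3 and 4 (-0.60 ± 0.14, edgeR adjusted p = 0.280, DESeq2 adjusted p = 0.0149). The 18 myeloid markers summed to 546 and 670 CPM in the controls and to 2311 and 2748 CPM in libraries 3 and 4. Cd74 (1008 and 1473 CPM) and Lyz2 (626 and 583 CPM) had the highest levels of them in libraries 3 and 4. Of the 15 myeloid markers tested, 4 were higher at an adjusted p under 0.05 in edgeR, 10 before adjustment and 7 in DESeq2. Their log2 fold changes were above 0 for 13 and below for 2 (Clec4f -0.94 and S100a8 -0.47). The 12 T cell markers summed to 2463 and 2426 CPM against 2953 and 4006 CPM, with 1 of 10 tested higher in edgeR, 6 before adjustment and 4 in DESeq2. That sum is carried by Cd3g and the Trbc genes. Of the 10 tested, 7 had log2 fold changes above 0 and 3 below (Trbc1 -0.38, Lef1 -0.10 and Cd8b1 -1.07). Trac, the constant region of the T cell receptor alpha chain, had the largest (4.46). Its level was 7.31 and 5.67 CPM in the controls and 85.1 and 201 CPM in libraries 3 and 4. Levels of B cell markers (649 to 1046 CPM), hepatocyte markers (117 to 196 CPM) and endothelial markers (57.7 to 81.6 CPM) had 0 genes called in edgeR. Among them, 1 hepatocyte gene was higher before adjustment and in DESeq2. Over all genes tested, 0.141% were higher at an adjusted p under 0.05 in edgeR, 4.48% before adjustment and 1.58% in DESeq2. The part of other cell types in the results on lincRNAs was not tested, and in bulk libraries more RNA per cell cannot be told apart from more cells of a type.

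Of the 2527 lincRNAs, 1648 had no count in any library and 2393 had under 100 counts in every library. A further 61 reached 100 counts in 1 to 3 libraries. Just inside the rule were Gm26637, with a lowest library of 105 counts, and Gm15326 and Mir155hg, each with 107. Just outside were Gm13166 and A930038B10Rik, with 99 counts each in the lowest library, and Gm27162, with 97. Because the rule asks for 100 counts in every library, it leaves out lincRNAs that are low in 1 genotype: 8 lincRNAs had 100 or more counts in both controls and fewer in both libraries labelled knockout, and 0 had the opposite pattern at this threshold. Over all genes the same patterns held for 129 and 129 genes, and over protein-coding genes for 90 and 124. The rule works on raw counts, so it also depends on library size, and library 3 was the smallest.

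The 73 lincRNAs together took 1.49% and 1.16% of the counts in the controls and 1.37% and 1.03% in libraries 3 and 4. Counting error was small beside these differences: the exact binomial 95% interval for control 1 ran from 1.483% to 1.490%, and it covers counting error only. Most of that share, and most of its movement, came from 3 genes. Gm42418 took 0.811% and 0.305% of the controls and 0.576% and 0.372% of libraries 3 and 4. Malat1 took 0.256%, 0.438%, 0.307% and 0.177% in the same order, and AW112010 took 0.209%, 0.189%, 0.271% and 0.263%. The other 70 lincRNAs took nearly the same share everywhere, from 0.211% to 0.231%.

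The levels spanned a wide range. By mean CPM over the 4 libraries, scaled by the trimmed mean of M-values (TMM), 9 lincRNAs lay above 100 CPM, 28 between 10 and 100 CPM and 36 below 10 CPM, with a median of 10.03 CPM. Long transcripts collect more counts, so the order between genes was read per kilobase of annotated exon (GENCODE M21). On that scale AW112010 came first with a mean of 2900 CPM per kb, rank 11 of 40340 genes with an exon length. Gm42418 followed with 2782 CPM per kb at rank 13, Gm10076 with 889 at rank 48, and Malat1, with 423 CPM per kb, stood at rank 140. The median lincRNA of the 73 had 4.06 CPM per kb.

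**Figure D1:**
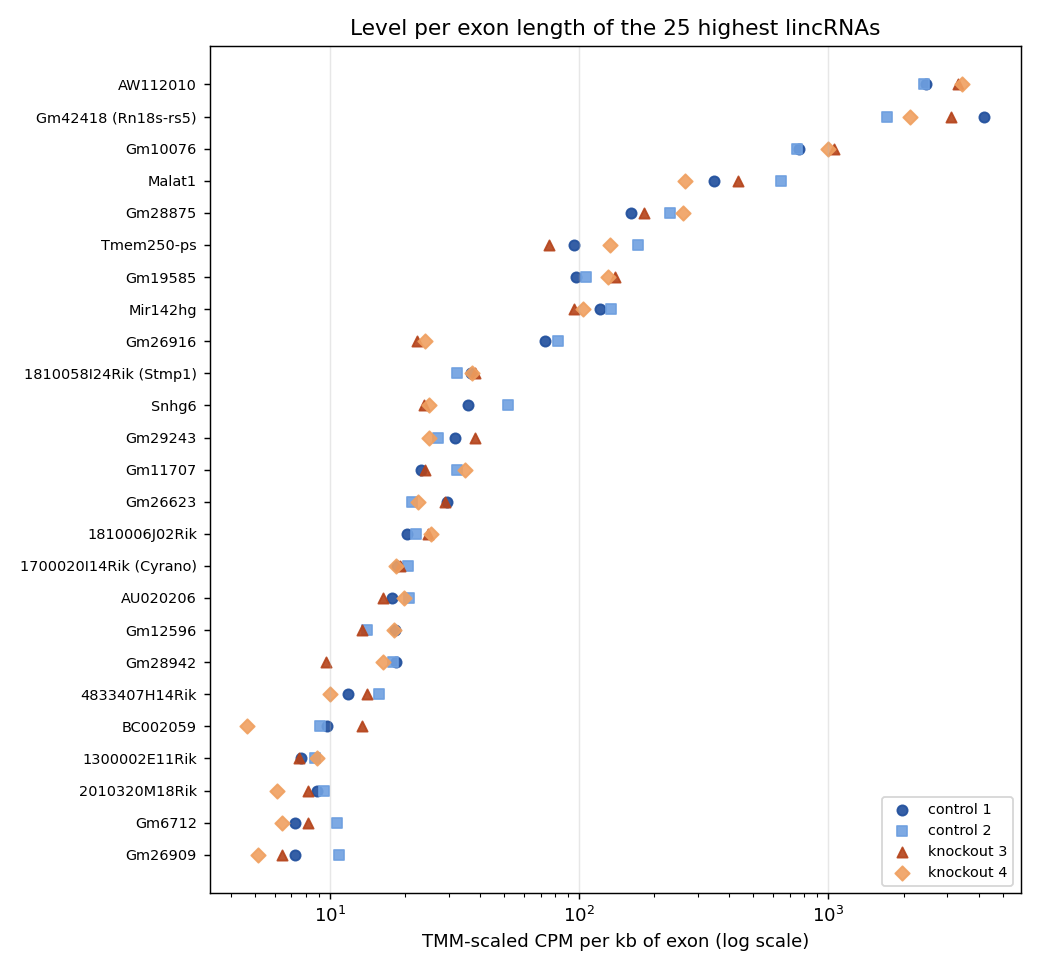
Level of the 25 lincRNAs with the highest mean, in TMM-scaled CPM per kilobase of exon on a log axis, with 1 point per library (blue for the controls, orange for the libraries labelled knockout). AW112010 (2407 to 3421 CPM per kb) and Gm42418 (1710 to 4193) overlap at the top, and Gm26916 shows the widest gap between the genotypes.

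AW112010 and Gm42418 did not differ beyond their spread, since AW112010 ranged from 2407 to 3421 CPM per kb and Gm42418 from 1710 to 4193. Gm10076 lay between 749 and 1050 CPM per kb and did not overlap Malat1, which lay between 266 and 643. Below them, Gm28875 (mean 209) overlapped Tmem250-ps (119) and lay above every value of Gm19585 (118) and Mir142hg (114 CPM per kb). Tmem250-ps, Gm19585 and Mir142hg overlapped one another. Gm28875, at 162 to 260 CPM per kb, lay just below all 4 values of Malat1, and Mir142hg, at 95.3 to 135, lay above all 4 of Gm26916 (22.4 to 82.0), the next in the order. Malat1 ranked higher by total CPM than per kilobase because its annotated exon is 6983 bases long, against 804 bases for AW112010 and 384 for Gm10076.

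Several of the most abundant entries are not plain noncoding genes. RefSeq (GRCm38.p6) lists 54 of the 73 by symbol or synonym, of which 47 are lncRNA there, 5 protein-coding and 2 pseudogenes. Gm42418 (chromosome 17, 39846958 to 39848788, plus strand, mm10) is listed by RefSeq under the symbol Rn18s-rs5, a pseudogene related to 18S ribosomal RNA. Its level was 7677 and 3131 CPM in the controls and 5681 and 3889 CPM in libraries 3 and 4. It thus differed 2.45-fold between the controls, the largest control ratio among the 73. Gm10076 (chromosome 14, 105681828 to 105682211) is the other RefSeq pseudogene, and its transcript matched that of Rpl41, a ribosomal protein gene, at 99.5% over 383 bases. Its level was 293 and 288 CPM in the controls and 403 and 382 CPM in libraries 3 and 4, while Rpl41 had 695, 645, 798 and 747 CPM. How reads common to both were assigned is not given in the sources used here, so the level of Gm10076 is uncertain. Further near copies were found for Gm26526 (Ube2h), Gm26623 (H2afz) and Gm6712 (Zfp97), at 95% identity or more over at least 50% of the transcript, and their levels are uncertain for the same reason. 1810058I24Rik is Stmp1, which RefSeq now lists as protein-coding and which is known for a small mitochondrial protein. Its level was 102, 90.0, 106 and 103 CPM. The 5 that RefSeq lists as protein-coding also include Tmem250-ps, Gm6712, Gm26637 and 4732487G21Rik, the last under the symbol Gpatch2l.

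Against this background the genotypes were compared with edgeR's quasi-likelihood test, fitted on all 14863 genes that passed the filter on low counts, which all 73 lincRNAs did. After adjustment, at a threshold of 0.05, 0 of the 73 were higher in the libraries labelled knockout and 0 were lower. Of all genes tested, 0.141% were higher and 0.0135% lower, and of the 9726 genes of any kind that met the same count rule, 0.175% and 0.0103%. Before adjustment, 6 lincRNAs passed 0.05 in each direction (8.22%), against 4.48% higher and 5.17% lower of all genes tested, and 4.29% and 5.24% of those that met the count rule. DESeq2, run as an alternative, called 0 higher and 3 lower (4.11%), namely Gm26916, Ino80dos and Neat1. It called 1.58% of all genes tested higher and 1.26% lower, and 1.18% and 1.43% of those that met the count rule. Both libraries labelled knockout lay below both controls for 23 of the 73 (31.5%), against 20.8% of all genes tested and 19.9% of those that met the count rule. Both lay above the controls for 14 (19.2%), against 19.5% and 21.6%, and for 36 the libraries overlapped. The labels do not say whether each library came from its own animal, so the p-values measure the spread between samples, which may be technical.

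The median log2 fold change (libraries labelled knockout over controls) was -0.08 for the 73 lincRNAs, with quartiles of -0.50 and 0.24, and single values ran from -1.73 to 1.21. The median was -0.01 over all genes tested and 0.01 for the 8942 protein-coding genes under the same count rule. It was -0.15 for the 217 other lincRNAs tested, -0.14 for 39 antisense genes and -0.37 for 45 processed transcripts under the count rule, of which 35 lay below 0. Without control library 2 the median of the 73 was 0.01, so its sign rests on that library. Across the 73, log2 fold change had a Spearman correlation of 0.01 with mean CPM and of -0.10 with exon length; across the 8942 protein-coding genes, the latter was -0.31. These correlations are across genes, which share the same 4 libraries, and are given as descriptions.

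**Figure D2:**
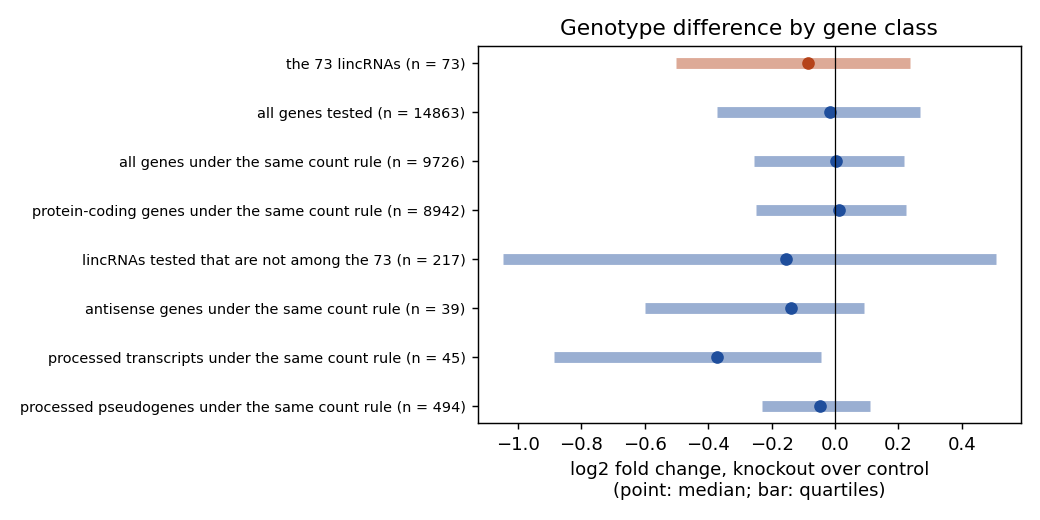
Median (point) and quartiles (bar) of the log2 fold change of the libraries labelled knockout over the controls, by gene class. The 73 lincRNAs (red) have a median of -0.08, and processed transcripts lie lowest at -0.37.

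The lincRNAs also differed between replicates of 1 genotype. The higher control was a median of 1.29 times the lower for the lincRNAs and 1.21 times for all genes under the same count rule. Between libraries 3 and 4 the medians were 1.31 and 1.21. A ratio above 1.5 was seen for 14 of the 73 (19.2%) between the controls, against 18.9% of all genes under the rule, and for 21 (28.8%) between libraries 3 and 4, against 20.2%. The widest was 4933424M12Rik, at 3.22 between libraries 3 and 4 (3.0015 and 9.66 CPM) but 1.09 between the controls. This gene was singled out after its values were seen.

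**Figure D3:**
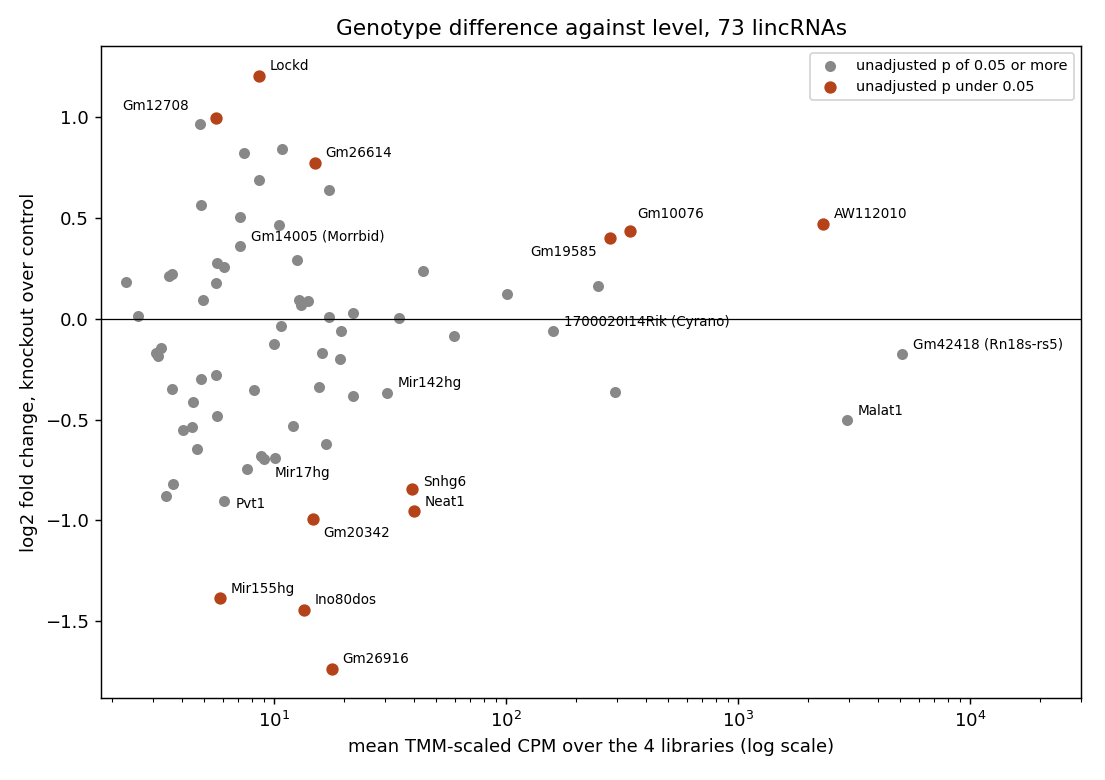
Log2 fold change of the libraries labelled knockout over the controls against mean TMM-scaled CPM (log axis) for the 73 lincRNAs. The 12 points in red have an unadjusted edgeR p under 0.05; none has an adjusted p under 0.05.

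The lincRNA with the lowest p among those higher in the libraries labelled knockout was AW112010 (chromosome 19, 11047612 to 11055808, minus strand), an interferon- and endotoxin-inducible transcript that is translated into a small protein in mouse macrophages. Its level was 1974 and 1935 CPM in the controls and 2667 and 2750 CPM in libraries 3 and 4. The groups did not overlap and each was tight, but the log2 fold change of 0.47 ± 0.13 SE (unadjusted p = 0.00911) had an adjusted p of 0.343. It stayed between 0.42 and 0.48 when any 1 library was left out. The summed myeloid markers given above were higher in the same libraries, and their part was not tested.

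Gm19585 (chromosome 17, 51986415 to 52163976) stood at 230 and 252 CPM in the controls and 329 and 307 CPM in libraries 3 and 4 (log2 fold change 0.40 ± 0.14, adjusted p = 0.429). Its nearest protein-coding gene was Satb1, which encodes a chromatin organiser of lymphocytes, 153125 bases away. Satb1 had 44.8 and 29.8 CPM in the controls and 23.0 and 19.5 CPM in libraries 3 and 4 (-0.81, adjusted p = 0.440), the opposite sign. The pseudogene Gm10076 had a log2 fold change of 0.44 ± 0.13 (adjusted p = 0.379), and Rpl41 one of 0.20 ± 0.13.

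Lower down in level, Gm26614 was at 11.9 and 10.2 CPM in the controls and 17.6 and 20.2 CPM in libraries 3 and 4 (0.77 ± 0.29, adjusted p = 0.473). Gm12708, 141091 bases from Jun, had 3.40 and 4.13 CPM against 7.79 and 7.23 CPM (0.997 ± 0.395, adjusted p = 0.497). E230001N04Rik (0.82) and 5031425E22Rik (0.64) completed the 8 lincRNAs with the lowest p in this direction, with adjusted p of 0.536 and 0.556.

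Lockd lies 3579 bases downstream of Cdkn1b, the gene of the cell-cycle inhibitor p27, and its locus is known as an enhancer of Cdkn1b in mouse erythroid cells. Its level was 4.38 and 5.99 CPM in the controls, 7.31 CPM in library 3 and 16.6 CPM in library 4. Its log2 fold change of 1.21 ± 0.49 was the highest of the 73 (adjusted p = 0.508), but without library 4 it was 0.47. Cdkn1b had 485 and 328 CPM in the controls and 260 and 211 CPM in libraries 3 and 4 (-0.79 ± 0.22, adjusted p = 0.360), so the gene pair had opposite signs.

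In the other direction, Gm26916 had the largest difference of the 73. Its level was 25.6 and 28.9 CPM in the controls and 7.89 and 8.46 CPM in libraries 3 and 4. The log2 fold change was -1.73 ± 0.27 SE, with an edgeR adjusted p of 0.156 and a DESeq2 adjusted p of 2.54e-06, and it lay between -1.82 and -1.64 with any 1 library left out. Gm26916 (chromosome 14, 61629484 to 61630414, plus strand) sits inside Dleu2 (61602839 to 61682373), a noncoding gene on the opposite strand that hosts microRNAs of the miR-15/16 family. All 352 exon bases of Gm26916 lie within exons of Dleu2. The strand setting of the counting was not given in the sources used here, so reads of the 2 genes cannot be told apart. Dleu2, annotated as a processed transcript and so outside the 73, had 26.4 and 21.4 CPM in the controls and 9.59 and 10.9 CPM in libraries 3 and 4 (-1.22 ± 0.29, edgeR adjusted p = 0.290, DESeq2 adjusted p = 0.00868).

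Ino80dos (chromosome 1, 63113078 to 63158290, plus strand) lies head to head with Ino80d, which encodes a subunit of the INO80 chromatin remodeller. Its level was 16.6 and 22.6 CPM in the controls and 6.65 and 7.75 CPM in libraries 3 and 4 (-1.44 ± 0.32, edgeR adjusted p = 0.277, DESeq2 adjusted p = 0.00469). Gm20342, which lies in an intron of Ino80dos on the same strand and shares no exon base with it, had 14.7 and 24.4 CPM against 11.8 and 7.81 CPM (-0.99 ± 0.39, adjusted p = 0.494). Ino80d had 13.2 and 18.0 CPM in the controls and 8.96 and 10.01 CPM in libraries 3 and 4 (-0.72, adjusted p = 0.547). All 3 genes of the locus were lower in both libraries labelled knockout, and they are not independent, since Ino80dos shares 431 exon bases with Ino80d on the opposite strand. Ndufs1, which shares 489 exon bases with Ino80dos at its other end, had a log2 fold change of -0.13.

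**Figure D4:**
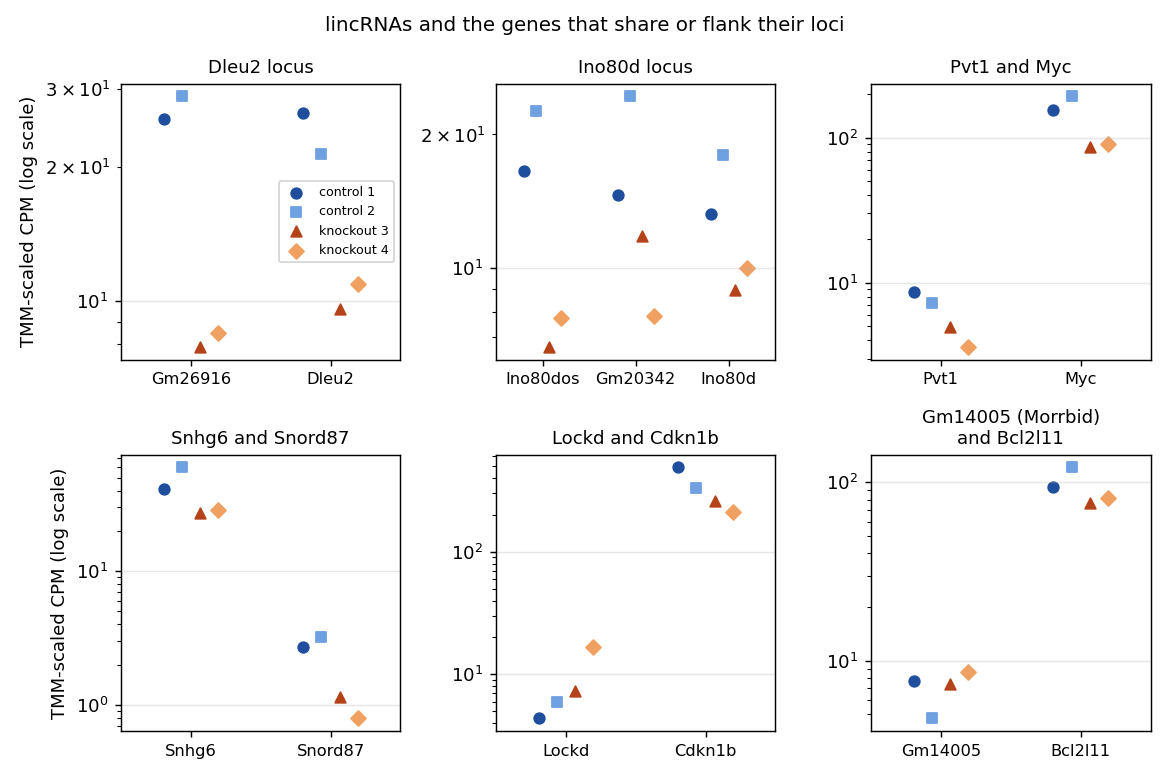
Level in TMM-scaled CPM (log axes) of 7 lincRNAs and of genes that overlap or flank them, with 1 point per library. Gm26916 and Dleu2, the 3 genes of the Ino80d locus, Pvt1 and Myc, and Snhg6 and Snord87 are lower in both libraries labelled knockout, while Lockd and Cdkn1b have opposite signs and Gm14005 overlaps between the groups.

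Neat1 and Malat1 lie next to each other on chromosome 19 and stay in the nucleus, where Neat1 is the scaffold of paraspeckles and Malat1 gathers in speckles. Neat1 had 50.4 and 54.7 CPM in the controls and 30.6 and 23.7 CPM in libraries 3 and 4. Its log2 fold change was -0.96 ± 0.22 SE, with an edgeR adjusted p of 0.290 and a DESeq2 adjusted p of 0.00906, and the groups did not overlap. Malat1 had 2426 and 4492 CPM in the controls and 3031 and 1854 CPM in libraries 3 and 4, so the groups overlapped (-0.50 ± 0.34, adjusted p = 0.738), and without control 2 its difference was 0.01. The protein-coding neighbour of Neat1, Frmd8, was level across the libraries at 158 to 175 CPM. Of 16 nuclear and chromatin-associated noncoding RNAs on the list, 15 were in the table and 7 were tested. The log2 fold change was above 0 for 1 (Lockd) and below 0 for 6 (51.3% of all genes tested), with a median of -0.96 against -0.01 over all genes tested, and 0 passed the adjusted threshold in edgeR. Before adjustment 1 was higher and 2 lower (4.48% and 5.17% of all genes tested). DESeq2 called 1 lower (Neat1), against 1.26% of all genes tested. Among those not in the 73, Tug1 had -0.44 (adjusted p = 0.583) and Kcnq1ot1, the antisense RNA of an imprinted domain, -1.37 (adjusted p = 0.388).

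The small nucleolar RNA hosts carry snoRNAs, guides of ribosomal RNA modification, typically in their introns. Of 21 such genes listed, 14 were in the table and 11 tested, 3 of them among the 73. All 11 had log2 fold changes below 0, as did 51.3% of all genes tested and 77.8% of the 45 processed transcripts under the count rule, with a median of -0.68. For 3 of them the unadjusted p was under 0.05 (5.17% of all genes tested were lower by this measure), and 0 passed the adjusted threshold in edgeR or in DESeq2. Snhg6 had 41.1 and 59.6 CPM in the controls and 27.3 and 28.7 CPM in libraries 3 and 4 (-0.85 ± 0.25, adjusted p = 0.379). Snord87, the snoRNA in its intron, had 158 and 153 counts against 49 and 41 (-1.62 ± 0.65, edgeR adjusted p = 0.505, DESeq2 adjusted p = 0.385). Snhg20 had 10.8 CPM in both controls against 8.12 and 5.33 CPM (-0.68 ± 0.37, adjusted p = 0.631), and Snhg12 had 6.29 and 3.03 CPM against 2.89 and 2.40 CPM (-0.82 ± 0.55, adjusted p = 0.733; -0.20 without control 1). In the annotation used, Snhg12 has 1 exon block, which covers Snora44, Snora61, Snora16a and Snord99. Snhg20 shares 193 exon bases with the small RNA Gm26083. The small RNAs named for Snhg12 and Snhg20 each had 0 counts of their own in all 4 libraries. Their part in the counts of the 2 hosts was not tested. Outside the 73, Gas5 had a log2 fold change of -0.46 (adjusted p = 0.424) and Snhg17 one of -1.06 (adjusted p = 0.446). The smallest differences were those of Snhg9, at -0.04, and Snhg14, at -0.13.

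**Figure D5:**
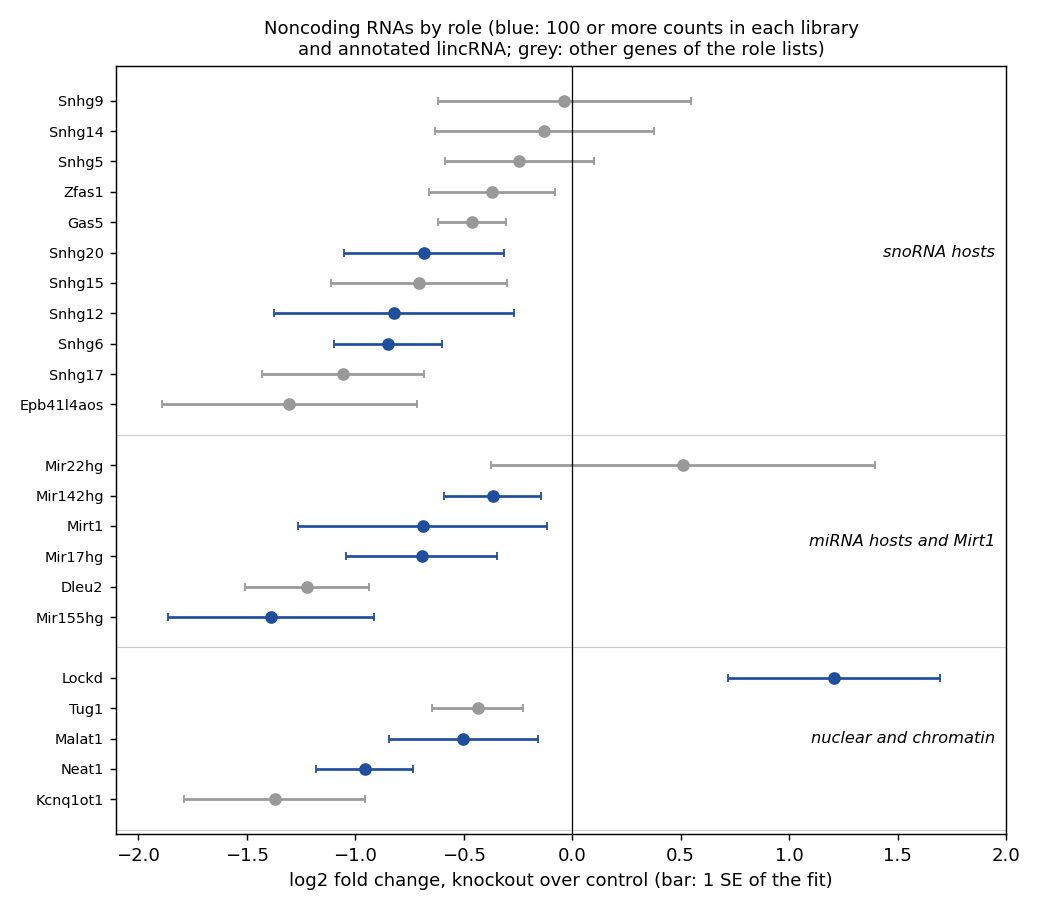
Log2 fold change of the libraries labelled knockout over the controls, with 1 standard error of the edgeR fit, for the tested snoRNA hosts, microRNA hosts (with Mirt1) and nuclear or chromatin-associated noncoding RNAs; blue marks the 10 that belong to the 73 lincRNAs. Firre and Miat, with SE above 1.6, are not drawn; all 11 snoRNA hosts lie below 0.

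MicroRNA hosts release hairpins that are cut to mature microRNAs, which recognise targets mainly through bases 2 to 8, the seed. The libraries counted host transcripts by gene, and mature microRNAs were not measured. The mature sequences below (RefSeq, GRCm38.p6) are shown because their hosts, Mir155hg, Mir142hg, Mir17hg and Dleu2, carry families of known action in lymphocytes. The seed is in capitals.
miR-155-5p: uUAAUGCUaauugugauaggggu
miR-142a-5p: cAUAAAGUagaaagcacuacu
miR-142a-3p: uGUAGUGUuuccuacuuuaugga
miR-17-5p: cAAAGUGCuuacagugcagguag
miR-20a-5p: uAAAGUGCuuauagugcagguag
miR-18a-5p: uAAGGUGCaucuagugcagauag
miR-19a-3p: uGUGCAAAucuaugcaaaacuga
miR-19b-3p: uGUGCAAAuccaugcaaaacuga
miR-92a-3p: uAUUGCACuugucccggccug
miR-15a-5p: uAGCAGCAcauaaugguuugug
miR-16-5p: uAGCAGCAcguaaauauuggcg
The seed is shared by miR-17-5p and miR-20a-5p, by miR-19a-3p and miR-19b-3p, and, from Dleu2, by miR-15a-5p and miR-16-5p.

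Mir155hg (chromosome 16, 84703167 to 84715245), host of miR-155, which is induced on lymphocyte activation, had 6.36 and 10.5 CPM in the controls and 2.49 and 3.94 CPM in libraries 3 and 4 (-1.39 ± 0.48, adjusted p = 0.430). Mir17hg (chromosome 14, 115042879 to 115046727), host of the miR-17 to miR-92a cluster, which is a target of the transcription factor Myc, had 10.7 and 11.6 CPM against 7.93 and 5.86 CPM (-0.69 ± 0.35, adjusted p = 0.600). Mir142hg (chromosome 11, 87755577 to 87757270), host of the blood-cell microRNA miR-142, had 32.6 and 36.2 CPM against 25.6 and 27.7 CPM (-0.37 ± 0.22, adjusted p = 0.688). In these 3 hosts both libraries labelled knockout were below both controls, which held for 20.8% of all genes tested, and 0 of the 3 passed the adjusted threshold in edgeR or DESeq2, while Mir155hg passed 0.05 before adjustment. Of 13 genes on the microRNA host list, 10 were in the table and 6 tested. The log2 fold change was below 0 for 5 (51.3% of all genes tested) and above for 1 (Mir22hg, 0.51), with a median of -0.69. In edgeR 0 passed the adjusted threshold and 2 were lower before adjustment (5.17% of all genes tested). DESeq2 called 1 of the 6 lower, Dleu2, against 1.26% of all genes tested. The list holds Mirt1, a transcript named for myocardial infarction in which no microRNA was annotated. Mirt1 had 14.7 and 10.1 CPM in the controls and 11.7 and 3.67 CPM in libraries 3 and 4 (-0.69, adjusted p = 0.804; -0.11 without library 4 and -1.78 without library 3), so its groups overlapped. It shares 1008 exon bases on the opposite strand with another of the 73, 4833407H14Rik.

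Cyrano, listed here as 1700020I14Rik and by RefSeq as Oip5os1, is known for a conserved site that pairs almost fully with miR-7 and directs its decay. A search of its transcripts for the seed match of miR-7a-5p found that site at bases 2952 to 2958 of the 8300-base transcript (GENCODE M21), with a run of 13 further bases complementary to the microRNA upstream of it. Both are in capitals in the site, and the seed in the microRNA.
Cyrano site: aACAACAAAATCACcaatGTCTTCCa
miR-7a-5p: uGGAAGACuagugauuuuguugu
A second seed match, at bases 762 to 768, had only 1 base of such pairing upstream. The level of Cyrano was 154 and 171 CPM in the controls and 159 and 152 CPM in libraries 3 and 4 (-0.06 ± 0.14 SE, adjusted p = 0.965), with the groups overlapping. AU020206 was similarly even, at 52.1 to 65.9 CPM (-0.08 ± 0.20).

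Pvt1 lies 47612 bases from Myc on chromosome 15 and is known for its regulatory ties to that gene. It had 8.69 and 7.22 CPM in the controls and 4.91 and 3.59 CPM in libraries 3 and 4 (-0.90 ± 0.40, adjusted p = 0.548). Myc had 154 and 193 CPM in the controls and 86.2 and 89.8 CPM in libraries 3 and 4 (-0.98 ± 0.17, adjusted p = 0.182). Both genes were lower in both of those libraries, and neither passed the adjusted threshold. Of the 17 noncoding RNAs of several biotypes listed for roles in immune cells, survival or stress, 11 were in the table under that name. The 4 tested had a median of -0.30, with 2 above 0 (Flicr and Lncpint, 0.04) and 2 below (Pvt1 and Ptprv, -0.65). Below 0 lay 51.3% of all genes tested. In edgeR 0 of the 4 passed the adjusted threshold, and 1, Flicr, was higher before adjustment (4.48% of all genes tested). DESeq2 called 0 of the 4. Flicr, which is transcribed from the Foxp3 locus, had 1 and 0 counts in the controls and 47 and 45 in libraries 3 and 4 (edgeR adjusted p = 0.290). It passed the filter on low counts only through libraries 3 and 4.

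Gm14005, which RefSeq lists as Morrbid, represses the death gene Bcl2l11 in mouse myeloid cells and lies 15772 bases from it. It was not among the names of the rule and is given for that role. It had 7.71 and 4.74 CPM in the controls and 7.38 and 8.62 CPM in libraries 3 and 4 (0.36 ± 0.41, adjusted p = 0.886), while Bcl2l11 had 93.5 and 121 CPM against 76.3 and 81.9 CPM (-0.44, adjusted p = 0.523). The groups overlapped for Gm14005 and not for Bcl2l11.

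From the X inactivation centre, Ftx, a positive regulator of Xist, was the 1 gene among the 73. It had 6.38 and 3.83 CPM in the controls and 3.33 and 4.35 CPM in libraries 3 and 4 (-0.41 ± 0.48, adjusted p = 0.892). Xist, the RNA that coats the inactive X chromosome in females, had 0 counts in all 4 libraries, which allows a level of up to 0.0517 to 0.0698 CPM. The Y-linked gene Ddx3y had 145, 135, 105 and 90.1 CPM, and all 4 Y-linked genes on the list were detected, in both genotypes. Of the 2 other genes tested from short lists, Jpx had a log2 fold change of 0.17 (adjusted p = 0.990) and Gm26917, a further locus over ribosomal RNA repeats, one of -0.36 (adjusted p = 0.966).

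The remaining abundant lincRNAs varied between replicates at least as much as between genotypes. Tmem250-ps had 237 and 428 CPM in the controls and 188 and 329 CPM in libraries 3 and 4 (-0.36 ± 0.35, adjusted p = 0.844). Gm28875 had 192 and 276 CPM against 216 and 309 CPM (0.16 ± 0.24, adjusted p = 0.931). Gm42418, with the levels given above, had a difference of -0.18 ± 0.41 (adjusted p = 0.965), which turned to 0.61 without control 1. At the edge of the rule, Gm26637 had -0.88 (adjusted p = 0.637) and Gm15326 had 0.18 (adjusted p = 0.982). The 43 lincRNAs not named by the rule had means of 2.59 to 43.7 CPM and log2 fold changes from -0.75 to 0.97. Of these, 21 were below 0 and 22 above, and the libraries overlapped for 28; since the rule names the lowest p in each direction, all 12 with an unadjusted p under 0.05 are among the 30 named.

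By position, the 73 lincRNAs lay on 19 chromosomes, with a median exon length of 2318 bases in 3 exon blocks, and 12 had a single exon. The term intergenic held only in part: 15 shared exon bases with a protein-coding gene, 13 of them on the opposite strand alone, and 16 lay within or over the span of the nearest protein-coding gene. Another 5 lay within 1 kb of it, 17 between 1 and 10 kb and 35 farther away. For the 49 whose nearest coding gene was tested and shared no exon base, the log2 fold changes of lincRNA and neighbour had a Spearman correlation of 0.07, and for the 19 of these within 10 kb one of -0.20, both given as descriptions across genes.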

How the data were processed

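The deposited file holds the authors' raw counts, 1 column for each of 4 libraries. The labels' protocols name SMARTer low-input libraries from total RNA on a NovaSeq, and the submitters' processing notes name bcl2fastq, STAR, Subread, featureCounts, DESeq2 and mm10; strand and multi-mapping settings are not given in the sources used here. Of 40757 lines, 276 repeats of 167 gene IDs, with identical counts, were dropped. Replicates differed beyond sampling noise (chi-square per degree of freedom 98.6 and 89.6), so each library counted as 1 sample.

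Low counts were removed with filterByExpr, libraries were scaled by TMM (factors 0.957 to 1.06), and genes were tested in edgeR 4.0.16 (robust quasi-likelihood test, genotype only, 2 residual degrees of freedom, R 4.3.3), with Benjamini-Hochberg adjustment over 14863 genes; the fit was tested on simulated data. Alternatives used DESeq2 1.42.0, limma 3.58.1, other scalings, filters and count rules, a replicate block and each library left out. Errors after ± are SE of the log2 fold change. Positions and exon lengths came from GENCODE M21, names and microRNAs from RefSeq GRCm38.p6, and near copies from BLAST+ 2.17.0 (at least 95% identity over 100 bases). Named lincRNAs were the 10 highest by CPM and by CPM per kb, all on role lists, the 8 with the lowest p in each direction and those nearest the count rule. The lincRNAs and lists were chosen with earlier results of these data known.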

Additional observations from a re-analysis of the deposited data

How the results depend on the processing

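The labels number the libraries 1 to 4, but the count columns also number them 1 and 2 within each genotype. Nothing ties the same number to a shared animal or day, and same-numbered libraries deviated together with a correlation of 0.119 over 14863 genes, from only 2 pairs. A fit with that number as a replicate block, added after the data were seen, has 1 residual degree of freedom and called 0 genes of any kind at an adjusted p under 0.05; the median of the 73 was -0.087, with 5 higher and 6 lower before adjustment. The count of lincRNAs higher at an adjusted p under 0.05 was 0 under every alternative run. The count lower was 4 with no filter on low counts (Malat1, Gm26916, Neat1 and Ino80dos), when 299 genes of any kind were called higher and 264 lower, and 3 with DESeq2 (235 and 188); the cause was not tested. At an unadjusted p under 0.05, leaving out 1 library gave 2 to 3 higher in place of 6, and 4 to 8 lower in place of 6. A rule of a mean of 100 counts, which takes in 101 lincRNAs, gave 11 lower. The median log2 fold change ranged from -0.173 to 0.0102 with 1 library left out, and Inpp4b from -0.13 to 0.60. Leaving out 1 library also turned the sign of Gm42418 (0.61 without control 1, 0.03 without library 4; lowest -0.68), Malat1 (-0.91 to 0.0128), Tmem250-ps (-0.84 to 0.13), Gm28875 (-0.07 without control 1, -0.14 without library 4; highest 0.45), 1700020I14Rik (-0.14 to 0.0196), AU020206 (0.0357 without control 2, 0.03 without library 3; lowest -0.26) and Ftx (-0.73 to 0.0019). Over all 73 lincRNAs, the sign turned for 10 without control 1, 16 without control 2, 14 without library 3 and 9 without library 4. With 2 libraries a group, the spread between libraries and not counting error limits the comparison for the abundant lincRNAs.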

Other observations

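The count rule left out lincRNAs with large genotype differences, in both directions. Of 217 other lincRNAs tested, DESeq2 called 4 lower and 2 higher in the libraries labelled knockout. EdgeR called 0 of the 217 after adjustment, with 15 lower and 4 higher before it. Over all genes tested, DESeq2 called 1.26% lower and 1.58% higher, and 5.17% were lower and 4.48% higher in edgeR before adjustment. The 4 named here were chosen after their values were seen. The 2 with 0 counts in both controls passed the filter on low counts only through libraries 3 and 4. Their adjusted p-values are therefore given as descriptions and not as support for a difference. Gdap10 (chromosome 12, 32821872 to 32826904, mm10) had 201 and 394 counts in the controls and 12 and 17 in libraries 3 and 4, labelled knockout. Its log2 fold change was -4.27 ± 0.71 SE, with an edgeR adjusted p of 0.172 and a DESeq2 adjusted p of 5.08e-06. Gm21781 (chromosome 10, 4391587 to 4396424), a gene with a single exon, had 143 and 257 counts against 4 and 10 (-4.75 ± 0.87, edgeR adjusted p = 0.208, DESeq2 adjusted p = 5.26e-05). For both genes every library labelled knockout was below every control. In the other direction, A930002I21Rik (chromosome 3, 107090880 to 107098401) had 0 counts in both controls and 30 and 128 in libraries 3 and 4 (edgeR adjusted p = 0.270, DESeq2 adjusted p = 0.00131). 2410080I02Rik (chromosome 19, 23134900 to 23135717) had 0 counts in both controls and 27 and 49 in libraries 3 and 4 (edgeR adjusted p = 0.290, DESeq2 adjusted p = 0.0409).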
